A study of Bos taurus with 8 samples.

Results

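The basement membrane genes examined here were 10 genes, taken by symbol from the 21880 genes of the count matrices: the type IV collagens COL4A1 and COL4A2, the multiplexin collagens COL15A1 and COL18A1, the laminin chains LAMA4, LAMB1 and LAMC1, the nidogens NID1 and NID2, and perlecan, HSPG2. Each symbol matched 1 row. Single-cell RNA sequencing (10x Genomics Chromium, 3′ end counting of unique molecular identifiers, UMIs) covered semitendinosus muscle of 10 Belgian Blue cattle and the cultures grown from it. The libraries, 1 per timepoint, held digested tissue (Timepoint 1, Muscle), cells of 9 of these donors grown for 72 h on fibronectin without serum (Timepoint 2, P0), and cells at passages 2, 5 and 8 (P2, P5 and P8). From P2 on, donors 5, 6 and 10 gave cultures sorted for satellite cells (SCs) and grown on laminin-521, donors 4, 7 and 8 gave cultures sorted for fibro-adipogenic progenitors (FAPs) and grown on collagen I, and donors 1, 2 and 9 gave unsorted cultures on fibronectin. Sort, coating and donors therefore cannot be told apart in the passaged cultures, and 3 donors stand for each kind of culture. The P0 cells were unsorted by the study's design and methods, although their sample labels name SCs and FAPs beside unsorted cells. Tissue was digested with collagenase, and donor 3 was sequenced at Timepoint 1 alone. Cells of all donors were pooled for each library and assigned to donors by their genotypes. The donors included calves and adults, which were not compared here.

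Basement membranes are thin sheets of matrix that surround each muscle fibre with its satellite cell, underlie endothelium and enclose smooth muscle. Laminin heterotrimers and networks of type IV collagen form the sheet, nidogens and perlecan link these networks, and the multiplexins sit at the face towards the surrounding connective tissue. In muscle the interstitial fibroblast-like cells, the FAPs, are known as a main source of these proteins, and the satellite cell lies between its fibre and the basement membrane, bound to it through integrins and dystroglycan.

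Levels are given as CPM, the UMIs of a gene scaled to 1000000 UMIs of its pseudobulk. A pseudobulk is the sum of raw counts over the cells of 1 donor, 1 annotated cell type and 1 timepoint, with at least 10 cells. Cell types are those the authors assigned: FAPs, SCs, vascular and lymphatic endothelial cells (VECs, LECs), a class of smooth muscle and mesenchymal cells (SMMCs), macrophages with monocytes, lymphocytes and rarer types. The libraries held 2772 to 10405 cells after the authors' quality control, with a median of 4184 UMIs per cell in muscle and 18340 to 27239.5 in culture, so low genes are known less precisely in muscle. Most marker genes fitted the labels of the 4 types followed here. In muscle, 2 of 3 FAP markers, 3 of 4 SC markers, 4 of 4 VEC markers and 5 of 5 SMMC markers were highest in the type they mark. DCN was higher in tenocytes than in FAPs, and ITGA7 was higher in SMMCs (344 CPM, donors pooled) than in SCs (213). At P0 ITGA7 was again higher in SMMCs (85.1) than in SCs (53.0), and TEK was higher in LECs (54.1) than in VECs (46.6). LUM was highest in FAPs at P0 (355), but SCs held 270. Among the cells, 129 cell barcodes occurred in several libraries, 16 of them with the same donor. A gene was called different where edgeR's quasi-likelihood F test gave an adjusted p below 0.05 over all genes tested and the absolute log2 fold change (log2FC) was above 1. Because each timepoint is 1 library, timepoint and library cannot be told apart. Such a relative level cannot separate fewer transcripts of a gene from more transcripts of all others. The p-values measure the spread between donors, which are separate animals. The main fits held no donor term, although most comparisons have the same donors on both sides, and donor as a block was an alternative.

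In fresh muscle, among the 7 cell types with pseudobulks of at least 3 donors, 8 of the 10 genes had their highest mean level in FAPs and the other 2, COL18A1 and LAMA4, in LECs. Against FAPs, 7 of the 10 genes were lower in VECs, 6 in SMMCs and 9 in SCs, and none was higher in any of these comparisons. Over all 6588 genes tested, 30.6% (16.3% higher, 14.3% lower) were called in VECs, 25.4% (12.2% higher, 13.2% lower) in SMMCs and 23.0% (8.74% higher, 14.3% lower) in SCs. Between VECs and SMMCs 4 of the 10 genes were called, COL15A1, NID1 and HSPG2 as higher in VECs and COL18A1 as lower, against 28.1% (15.8% higher, 12.3% lower) of all genes. The authors' cell type labels rest on clustering of these very counts, so tests between types are not independent of the labels.

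COL4A1 (ENSBTAG00000012849) and COL4A2 (ENSBTAG00000025210) encode the chains of the most widespread type IV collagen trimer and are known as a head-to-head gene pair. In FAPs of the 10 donors COL4A1 lay between 2404 and 3779 (median 2657) CPM. VECs ranged between 1105 and 2249.8 (median 1643) and SMMCs between 1038 and 2147 (median 1892), so every FAP value lay above every VEC and SMMC value. The fitted differences were nevertheless under the threshold of size (log2FC -0.79 ± 0.25 SE, edgeR adjusted p = 0.00497 for VECs, log2FC -0.86 ± 0.25 SE, edgeR adjusted p = 0.00339 for SMMCs). VECs and SMMCs did not separate from each other (log2FC 0.06 ± 0.25 SE, edgeR adjusted p = 0.872, 95% interval -0.42 to 0.55). SCs held 617 to 1505 CPM, lower than FAPs (log2FC -1.47 ± 0.25 SE, edgeR adjusted p = 1.7e-06). COL4A2 was also highest in FAPs and lowest in SCs of these types, with means of 274 in FAPs, 232 in VECs, 183 in SMMCs and 74.4 in SCs. The range of FAPs, 187 to 414, and that of VECs, 127 to 313, overlapped, whereas every SC value (31.7 to 143) lay below every FAP value (log2FC -2.003 ± 0.21 SE, edgeR adjusted p = 1.34e-12).

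The multiplexins, collagens that end in a domain released as an antiangiogenic fragment, had different orders. COL15A1 (ENSBTAG00000010082) lay between 775 and 1782 (median 1439.8) CPM in FAPs and between 437 and 958 (median 743) in SCs. Its level in SCs thus overlapped that of FAPs in part, and the difference missed the threshold of size by little (log2FC -0.97 ± 0.24 SE, edgeR adjusted p = 0.000589), which it passed with donor as a block (log2FC -1.001, edgeR adjusted p = 9.77e-05). VECs held 120.4 to 493 and SMMCs 7.69 to 81.4 CPM, both below every FAP value (log2FC -2.23 ± 0.25 SE for VECs and -5.23 ± 0.33 SE for SMMCs). COL18A1 (ENSBTAG00000023907) was highest in LECs, where the 4 donors with enough cells held 214, 614, 334 and 401 CPM. All of these lay above the range of FAPs, 73.1 to 148, but LECs were not tested against FAPs. SMMCs held 38.3 to 299.9 CPM, a range around that of FAPs (log2FC 0.34 ± 0.22 SE), and were above VECs (VECs against SMMCs, log2FC -1.55 ± 0.25 SE, edgeR adjusted p = 2e-07). VECs (24.9 to 72.5) and SCs (7.35 to 92.1) were lower than FAPs (log2FC -1.21 ± 0.23 SE and -2.20 ± 0.28 SE).

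Among the laminin chains, LAMA4 (ENSBTAG00000008817), an alpha chain known from vessel walls, had overlapping ranges in FAPs (227 to 590.1 CPM), SMMCs (211 to 357) and LECs (249 to 599). It was lower in VECs, at 83.0 to 232 (log2FC -1.35 ± 0.20 SE, edgeR adjusted p = 2.6e-08), and lowest of these types in SCs, which lay between 2.82 and 40.9 (median 24.0) (log2FC -4.05 ± 0.26 SE, edgeR adjusted p = 2.65e-21). No SC value reached the lowest FAP value. LAMB1 (ENSBTAG00000011412), a beta chain, lay between 393 and 1073 (median 744) CPM in FAPs and at most 297 in VECs, 255 in SMMCs and 238 in SCs. LAMC1 (ENSBTAG00000011966), the gamma chain of most laminins, lay between 994 and 1963 (median 1521) in FAPs and was second highest among the 4 types in SCs, between 473 and 891 (median 628). For both genes the FAP values stood clear of the other 3 types, with log2FC of -1.96 in VECs, -2.78 in SMMCs and -3.11 in SCs for LAMB1, and -2.86, -2.50 and -1.32 for LAMC1.

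NID1 (ENSBTAG00000007244) lay between 1074 and 1961 (median 1418) CPM in FAPs, between 70.1 and 714 (median 269) in SCs, between 126 and 299 (median 234) in VECs and between 7.69 and 67.3 (median 28.1) in SMMCs. Its 10 SC values spread over a wider range, relative to their mean (318 ± 219 SD), than those of FAPs (1437 ± 287 SD). NID2 (ENSBTAG00000021945), the second nidogen, differed most between FAPs, at 223 to 429.6, and SCs, at 6.26 to 51.5 (log2FC -4.09 ± 0.25 SE, edgeR adjusted p = 1.04e-23). VECs held 103 to 252 CPM of NID2, a range that overlapped that of FAPs (log2FC -0.93 ± 0.18 SE, edgeR adjusted p = 9.61e-06), and SMMCs 61.1 to 202 (log2FC -1.56 ± 0.20 SE, edgeR adjusted p = 4.77e-10). HSPG2 (ENSBTAG00000017122), the core protein of the heparan sulfate proteoglycan perlecan, lay between 55.8 and 203 (median 76.1) CPM in FAPs and was lower in VECs, SCs and SMMCs, with means of 36.4, 23.0 and 12.4. Its FAP values did not overlap those of SCs or SMMCs but did overlap those of VECs (12.9 to 57.3).

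Lymphocytes and macrophages serve here as a reference and give the level such cells had in this library. Whether they make some of these genes themselves was not tested. Per donor COL4A1 was at 0 to 292 CPM in lymphocytes, mean 129 ± 104 (SD, n = 10), and at 0 to 54.7 in macrophages. In lymphocytes LAMA4 lay between 0 and 42.6 and NID2 between 0 and 51.7, ranges that cover all values of muscle SCs for LAMA4 and for NID2. In macrophages LAMA4 lay between 0 and 19.04 and NID2 between 0 and 23.8, and 5 of the 10 SC values of LAMA4 and 2 of those of NID2 lay above these ranges. The low levels of both genes in muscle SCs thus did not stand clear of those of lymphocytes. The means of SCs and lymphocytes were 23.6 and 9.04 for LAMA4 and 20.5 and 17.1 for NID2. Per donor the lymphocytes held FAP markers summing to 18.5 to 1352 CPM and myocyte markers to 75.4 to 2438, and their part in these ranges was not tested. Muscle SMMCs also lay wholly within the lymphocyte ranges for COL15A1 (0 to 218 CPM in lymphocytes), NID1 (0 to 207) and HSPG2 (0 to 34.4), and overlapped those of macrophages for these genes. The folds given for these genes in SMMCs thus rest on levels whose ranges did not stand clear of that reference. Mean levels in SMMCs and lymphocytes were 41.1 and 46.6 for COL15A1, 32.4 and 52.3 for NID1, and 12.4 and 3.97 for HSPG2. For HSPG2 the lymphocyte mean was thus the lower one, and lymphocyte pseudobulks held as few as 42591 UMIs. The highest lymphocyte value of LAMC1, 339 (median 39.4), also exceeded all SMMC and VEC values of that gene, 211 to 332 and 118 to 288, but these lay above every macrophage value (0 to 59.5). Every FAP value of the 10 genes lay above every lymphocyte and macrophage value. In 51 cells labelled neutrophils, the type with the fewest UMIs per cell, a mean of 1937 UMIs per cell, COL4A1 reached 1276 CPM (95% interval 1063 to 1519, 126 UMIs). In the 1 neutrophil pseudobulk with enough cells the 3 FAP markers summed to 6554 CPM and the SMMC markers to 842, against medians of 99.9 and 62.1 for FAP markers in lymphocytes and macrophages, and their part in this value was not tested. The 23 tenocytes held LAMC1 at 1268 CPM (95% interval 1089.8 to 1468, 180 UMIs) and NID1 at 923 CPM (95% interval 772 to 1095, 131 UMIs). In the 12 glial cells COL18A1 was at 349.6 CPM (95% interval 191 to 587, 14 UMIs). The 45 myocytes held COL15A1 at 403 CPM (95% interval 312 to 512, 67 UMIs). These intervals are exact Poisson intervals of pooled counts and cover counting error only.

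**Figure D1:**
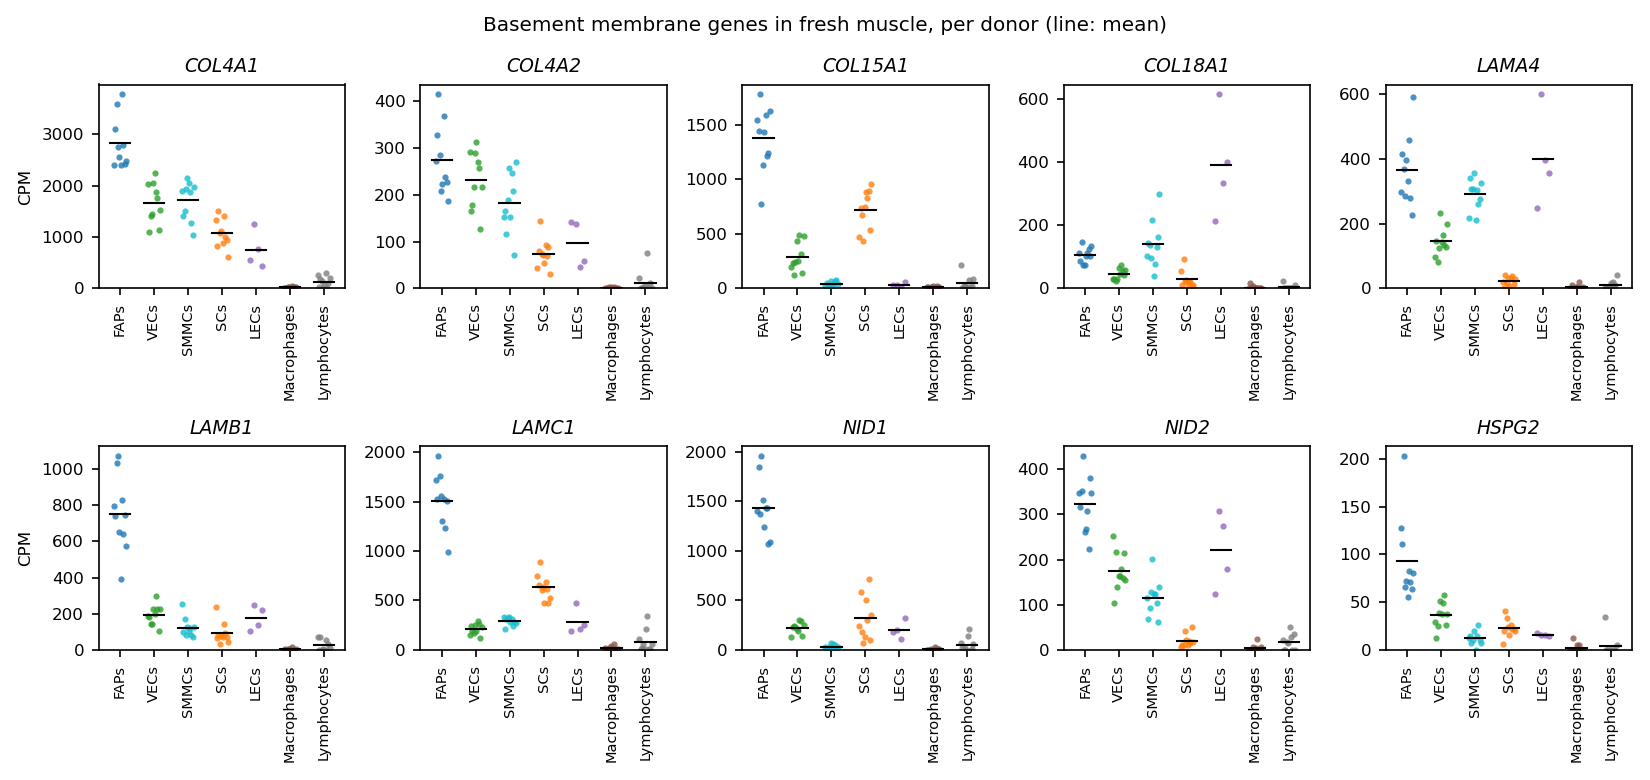
Levels of the 10 basement membrane genes in fresh muscle, in CPM (vertical axes, linear, 1 scale per gene), by cell type; each point is 1 donor and the line is the mean. FAPs carry the highest points for most genes, COL4A1 from 2404 to 3779 CPM, whereas COL18A1 is highest in the 4 LEC pseudobulks and COL15A1 has its second highest mean in SCs.

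After 72 h in culture 9 of the 10 genes, all but NID2, were called lower in FAPs than in fresh muscle. Over all 9208 genes tested, 43.4% (20.9% higher, 22.5% lower) were called in this comparison. The median log2FC of the 10 genes was -2.37, against 0.03 over all genes tested. COL15A1 had the largest log2FC. It lay between 775 and 1782 CPM in muscle and between 6.85 and 15.8 at P0, a 111-fold difference between the means (log2FC -6.68 ± 0.17 SE, edgeR adjusted p = 1.71e-19). NID1 lay between 1074 and 1961 in muscle and between 89.7 and 124 at P0 (log2FC -3.68 ± 0.13 SE, edgeR adjusted p = 5.93e-18). HSPG2 lay between 55.8 and 203 and then between 5.08 and 7.75 (log2FC -3.61 ± 0.17 SE, edgeR adjusted p = 2.44e-15). In each of these 3 genes all P0 values stood far under the lowest muscle value. The P0 values of COL15A1 and HSPG2 in FAPs lay within the ranges of P0 macrophages, 0 to 24.3 and 0 to 22.8. These levels were thus not detectable above that reference, and the size of both folds rests on it. The P0 macrophage pseudobulks held 87573 to 251092 UMIs and those of P0 FAPs 10321593 to 23061306, so the macrophage ranges are the less precise. Whether macrophages make these genes themselves was not tested. COL4A2 fell from a mean of 274 ± 74.2 (SD, n = 10) to 33.4 ± 4.27 (SD, n = 9) (log2FC -2.90 ± 0.13 SE, edgeR adjusted p = 5.77e-16). COL4A1 fell from 2830.3 ± 502 (SD, n = 10) to 557 ± 49.2 (SD, n = 9) (log2FC -2.23 ± 0.10 SE, edgeR adjusted p = 3.04e-16). LAMC1, at 197 to 326 CPM at P0, and LAMB1, at 147 to 203, were lower with log2FC of -2.51 ± 0.12 SE and -2.07 ± 0.14 SE. COL18A1 was between 19.04 and 48.4 at P0 (log2FC -1.56 ± 0.18 SE).

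The smallest differences in FAPs were those of LAMA4 and NID2. LAMA4 lay between 227 and 590.1 CPM in muscle and between 144 and 224 at P0 (log2FC -1.04 ± 0.15 SE, edgeR adjusted p = 1.19e-06), just past the threshold of size, which it missed with donor as a block (log2FC -0.9995, edgeR adjusted p = 2.09e-06). NID2 lay between 223 and 429.6 in muscle and between 134 and 237 at P0, with overlapping ranges, and was not called (log2FC -0.86 ± 0.12 SE, edgeR adjusted p = 7.28e-07). The 3 FAP markers PDGFRA, DCN and LUM moved in the same direction: their summed level in FAPs lay between 19980.1 and 24776 CPM in muscle and between 2829 and 4432 at P0, with none of the 3 at 0. The 3 myocyte markers summed to 567 to 939 in muscle FAPs and to 0.431 to 1.34 at P0. The part of either in the differences was not tested. The muscle FAP pseudobulks used here are also those of the comparisons between types in muscle.

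In SCs the genes split over the same 72 h: COL4A1, COL4A2, COL15A1, LAMC1 and NID1 were lower at P0, and LAMA4 and NID2 were higher. Of the 10 genes, 8 passed the filter on low counts, 7 were called, 5 of them lower, against 34.3% (15.8% higher, 18.5% lower) of all 5221 genes tested. COL18A1 and HSPG2 did not pass that filter, at means of 29.0 and 23.0 CPM in muscle and 6.41 and 5.38 at P0. COL15A1 lay between 437 and 958 CPM in muscle SCs and between 41.5 and 93.2 at P0 (log2FC -3.50 ± 0.16 SE, edgeR adjusted p = 5.87e-15). COL4A1 lay between 617 and 1505 and then between 218 and 443 (log2FC -1.68 ± 0.15 SE, edgeR adjusted p = 1.59e-09). Part of these P0 values lay below the highest COL4A1 value of P0 macrophages, so the size of this fold rests in part on that reference. COL4A2 fell with a log2FC of -1.87 ± 0.24 SE, NID1 of -1.87 ± 0.35 SE and LAMC1 of -1.11 ± 0.10 SE. The call of LAMC1 was lost without the filter on low counts (log2FC -0.74) and with at least 30 cells per pseudobulk (log2FC -0.99). The muscle and P0 ranges of NID1, 70.1 to 714 and 59.1 to 129, overlapped, whereas those of COL4A1, COL4A2, COL15A1 and LAMC1 did not.

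LAMA4 in SCs lay between 2.82 and 40.9 (median 24.0) CPM in muscle and between 53.0 and 122 (median 97.2) at P0, with no overlap (log2FC 2.03 ± 0.26 SE, edgeR adjusted p = 2.5e-07). NID2 lay between 6.26 and 51.5 (median 16.3) in muscle and between 154 and 326 (median 197) at P0 (log2FC 3.38 ± 0.23 SE, edgeR adjusted p = 5.27e-12), again without overlap, and its range in P0 SCs overlapped that of P0 FAPs, 134 to 237. P0 macrophages held LAMA4 at 36.4 to 103 and NID2 at 41.1 to 151, so all SC values of NID2 lay above them and those of LAMA4 did not. The muscle SC values of both genes lay within the ranges of muscle lymphocytes, so the size of both folds rests on that reference. LAMB1, at 33.0 to 238 and then 131 to 191, was not called (log2FC 0.85 ± 0.21 SE, edgeR adjusted p = 0.00129). The summed level of the 3 FAP markers also moved in the cells labelled SCs. It lay between 51.5 and 843 CPM in muscle (median 78.1) and between 973 and 2009 at P0 (median 1419), with none of the 3 at 0. The 4 SC markers summed to 703 to 1948 in muscle SCs and 76.1 to 165 at P0, the myocyte markers to 202 to 751 and 0 to 1.69, and the glial markers to 213 to 529 and 26.6 to 83.7. The part of these markers in the changes of the 10 genes in SCs was not tested.

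In VECs 1 of the 10 genes was higher at P0 and 2 were lower, against 35.1% (15.6% higher, 19.6% lower) of 5896 genes called over all. COL18A1 rose: it lay between 24.9 and 72.5 (median 44.8) CPM in muscle and between 279 and 431 (median 335) at P0, a 7.56-fold difference between the means (log2FC 2.88 ± 0.15 SE, edgeR adjusted p = 1.08e-15), and no donor of either group lay in the range of the other. NID2 lay between 103 and 252 and then between 32.4 and 65.4 (log2FC -1.75 ± 0.15 SE, edgeR adjusted p = 3.43e-11). LAMB1 lay between 105 and 297 and then between 46.8 and 93.6 (log2FC -1.44 ± 0.14 SE, edgeR adjusted p = 6.78e-10), and neither gene's groups overlapped. COL4A1 was at 1658 ± 397 (SD, n = 10) CPM in muscle and 1943 ± 319.6 (SD, n = 9) at P0 (log2FC 0.20 ± 0.13 SE, edgeR adjusted p = 0.154, 95% interval -0.05 to 0.45). COL15A1, the gene with the largest fall in FAPs and SCs, lay between 120.4 and 493 and then between 172 and 308 in VECs (log2FC -0.31 ± 0.22 SE, edgeR adjusted p = 0.211, 95% interval -0.73 to 0.12). The VEC markers summed to 1951 to 2688 in muscle VECs and 1572 to 2402 at P0, and the SMMC markers to 29.2 to 165 and 26.4 to 109.6. The glial markers summed to 288 to 860 in muscle VECs and 16.2 to 54.0 at P0, and the tenocyte markers to 47.0 to 146 and 0 to 3.07, both without overlap. The FAP markers in VECs summed to 39.6 to 814 CPM in muscle (median 184) and 237 to 499 at P0 (median 381), and the myocyte markers to 228 to 894 and 0 to 3.597. The part of these markers in the differences was not tested. In SMMCs 7 genes passed the filter and 1 was called, COL4A2, which lay between 71.2 and 269 CPM in 10 muscle donors and between 82.4 and 115 in 7 P0 donors, with ranges that overlapped (log2FC -1.04 ± 0.18 SE, edgeR adjusted p = 9.98e-06). Over all 3454 genes tested 36.4% (15.1% higher, 21.3% lower) were called. LAMA4 did not overlap, at 211 to 357 and then 126 to 202, but was under the threshold of size (log2FC -0.84 ± 0.13 SE, edgeR adjusted p = 3.98e-06). With donor as a block 2 genes were called, and LAMB1 joined as higher (log2FC 1.04, edgeR adjusted p = 1.52e-05). With every pseudobulk thinned to the UMI total of the smallest, none of the 10 genes was called in SMMCs. The 5 SMMC markers summed to 7229.8 to 25180.4 CPM in muscle SMMCs and 1214 to 6177 at P0, the myocyte markers to 102 to 543 and 0 to 3.34 and the SC markers to 182 to 621 and 76.8 to 126, all without overlap, and the FAP markers to 38.3 to 1185 (median 129) and 482 to 1044 (median 679.8). Their part in the differences was not tested. COL4A1 had a mean of 1652 ± 129 (SD, n = 7) CPM in P0 SMMCs and 1714 ± 377 (SD, n = 10) in muscle (log2FC -0.06 ± 0.11 SE, edgeR adjusted p = 0.646).

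**Figure D2:**
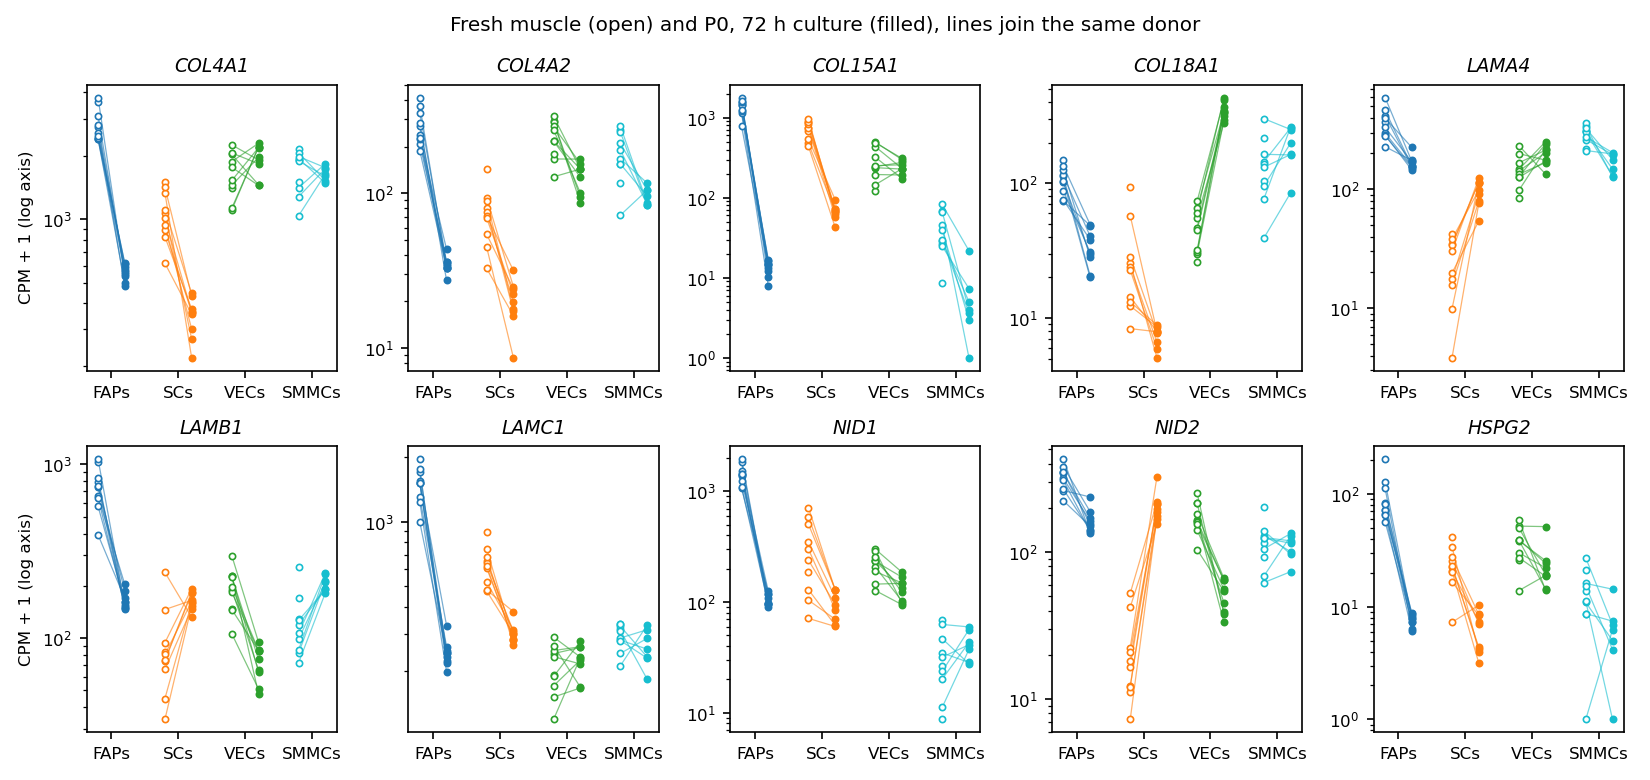
Level of each gene in fresh muscle (open points) and at P0 (filled points) in FAPs, SCs, VECs and SMMCs, in CPM plus 1 on a logarithmic vertical axis; each point is 1 donor and lines join the pseudobulks of the same donor. In FAPs COL15A1 drops to 6.85 to 15.8 CPM, in VECs COL18A1 climbs to 279 to 431, and in SCs NID2 climbs to 154 to 326.

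**Figure D3:**
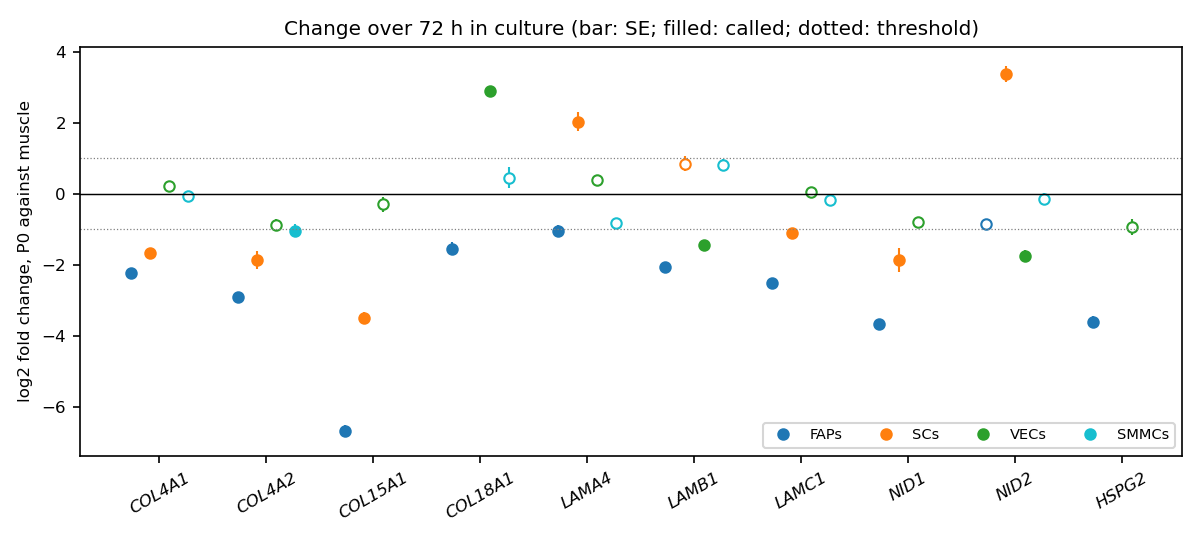
Log2 fold change of P0 against muscle (vertical axis) for the 10 genes in each cell type, from edgeR; bars are 1 SE, filled points passed both thresholds, and dotted lines mark a log2FC of 1 and -1. All FAP points lie below 0, whereas SCs, VECs and SMMCs have points on both sides.

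The difference between culture changes was tested directly in fits of 2 cell types. The change in FAPs was the more negative one against SCs in 8 of the 10 genes, beside 20.0% (7.60% higher, 12.4% lower) of 8751 genes called over all. Against VECs it was the more negative one in 8 of the 10 as well, beside 25.6% (13.8% higher, 11.8% lower) of 8613 genes. Against SCs the difference was largest for NID2 (log2FC -4.44 ± 0.26 SE, edgeR adjusted p = 1.28e-16) and COL15A1 (log2FC -3.40 ± 0.22 SE, edgeR adjusted p = 3.6e-15), and COL4A1 (log2FC -0.79 ± 0.17 SE) and COL18A1 (0.13 ± 0.35 SE) were not called. Against VECs it was largest for COL15A1 (log2FC -6.44 ± 0.28 SE, edgeR adjusted p = 3.05e-20) and COL18A1 (log2FC -4.50 ± 0.25 SE, edgeR adjusted p = 3.12e-18), and LAMB1 (-0.69 ± 0.21 SE) and NID2 (0.82 ± 0.20 SE) were not called. Both tests use the same FAP pseudobulks. The differences of NID2 and LAMA4 against SCs rest on muscle SC levels that did not stand clear of those of lymphocytes. Those of COL15A1 and HSPG2 rest on P0 FAP levels within the P0 macrophage ranges.

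At P0 the order of the cell types differed from that in muscle: 6 of the 10 genes had their highest mean in VECs and none in FAPs. Against FAPs, 5 genes were higher in VECs and 2 lower, beside 26.6% (14.2% higher, 12.4% lower) of 8791 genes called over all. COL4A1 was at 1444 to 2291 CPM in VECs and 479 to 619 in FAPs (log2FC 1.85 ± 0.12 SE, edgeR adjusted p = 2.99e-18), COL15A1 at 172 to 308 and 6.85 to 15.8 (log2FC 4.36 ± 0.15 SE, edgeR adjusted p = 7.13e-30), and COL18A1 at 279 to 431 and 19.04 to 48.4 (log2FC 3.43 ± 0.17 SE, edgeR adjusted p = 1.81e-22). COL4A2 and HSPG2 were also higher in VECs (log2FC 1.997 ± 0.14 SE and 1.63 ± 0.19 SE), whereas NID2 (-1.61 ± 0.14 SE) and LAMB1 (-1.11 ± 0.11 SE) were lower. SMMCs stood above FAPs for COL4A1 (log2FC 1.52 ± 0.13 SE, edgeR adjusted p = 8.34e-14), COL4A2 (log2FC 1.43 ± 0.17 SE) and COL18A1 (2.57 ± 0.18 SE) and below them for NID1 (-1.41 ± 0.20 SE), beside 10.6% (6.03% higher, 4.56% lower) of all genes called. COL15A1 was called lower in SMMCs too, but its ranges, 0 to 20.8 CPM in SMMCs and 6.85 to 15.8 in FAPs, overlapped and both lay within that of P0 macrophages, so no fold is read from it. Between SCs and FAPs at P0 2 of the 10 genes were called, beside 9.62% (5.03% higher, 4.60% lower) of all genes. COL15A1 was higher in SCs, at 41.5 to 93.2 against 6.85 to 15.8 CPM (log2FC 2.44 ± 0.14 SE, edgeR adjusted p = 1.29e-19), and COL18A1 was lower, at 4.07 to 7.87 against 19.04 to 48.4 (log2FC -2.38 ± 0.20 SE, edgeR adjusted p = 1.31e-13). For the remaining 8 genes the log2FC of SCs against FAPs lay between -0.81 and 0.32. Macrophages at P0 carried COL4A1 at 137 to 326 and NID2 at 41.1 to 151 CPM together with FAP markers summing to 881 to 1918, which gives the level of the reference type in that library. No value lay above the highest macrophage value for COL15A1 and HSPG2 in P0 FAPs, for COL18A1 (0 to 32.6 in macrophages) and HSPG2 in SCs, for LAMB1 and NID2 in VECs and for COL15A1, NID1, NID2 and HSPG2 in SMMCs. Part of the values also lay below it, among others for COL18A1 and NID2 in FAPs, COL4A1 and LAMA4 in SCs and HSPG2 in VECs. HSPG2 had a mean of 22.1 in VECs, with donor 5 at 50.4 and the next donor at 24.6, and of 7.12 in macrophages. The folds of these genes in these types rest wholly or in part on levels not detectable above that reference.

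COL4A1 and COL4A2 encode chains of the same trimer, and their ratio within a pseudobulk does not depend on its total. The value of the ratio itself also reflects how well each 3′ end was captured, so the change was examined here and not the ratio's size. In FAPs log2(COL4A1/COL4A2) of UMIs, with 0.5 added to each count, lay between 3.11 and 3.73 in muscle and between 3.86 and 4.26 at P0. It rose by 0.64 ± 0.16 (SD, n = 9) within donors, in 9 of 9 donors (exact sign-flip permutation test over donors, 2-sided p = 0.00391, the smallest the test can give, BH-adjusted 0.00781 over 4 cell types). In VECs it lay between 2.73 and 3.13 in muscle and between 3.74 and 4.27 at P0 and rose by 1.11 ± 0.19 (SD, n = 9), also in 9 of 9 donors (exact permutation p = 0.00391, BH-adjusted 0.00781). SMMCs showed a rise of 0.92 ± 0.54 (SD, n = 7), in 7 of 7 donors (exact permutation p = 0.0156, the smallest possible with 7 donors, BH-adjusted 0.0208), on COL4A2 counts as low as 7 UMIs in muscle. In SCs the change was 0.28 ± 0.41 (SD, n = 9), higher in 6 of 9 donors, and did not pass (exact permutation p = 0.0586, BH-adjusted 0.0586). With 2 added to each count in place of 0.5 it did pass in SCs, at 0.35 and higher in 8 of 9 donors (exact permutation test, BH-adjusted p = 0.0156). In the 3 types in which the ratio rose with either value, COL4A2 was thus lower relative to COL4A1 at P0 than in muscle. The mean ratio was also higher at P0 in LECs, 2.90 in muscle and 4.30 at P0, and in macrophages, 2.38 and 4.27. Their COL4A2 counts were as low as 1 and 0 UMIs, and neither was tested. With 1 library per timepoint, a shift shared by all cells of a library cannot be told apart from a change in these types. In passaged FAPs of FAP cultures the ratio was 3.56 to 3.80 at P2 and 3.53 to 3.66 at P8, and in SCs of SC cultures 3.92 to 4.02 at P2 and 3.80 to 4.06 at P5.

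**Figure D4:**
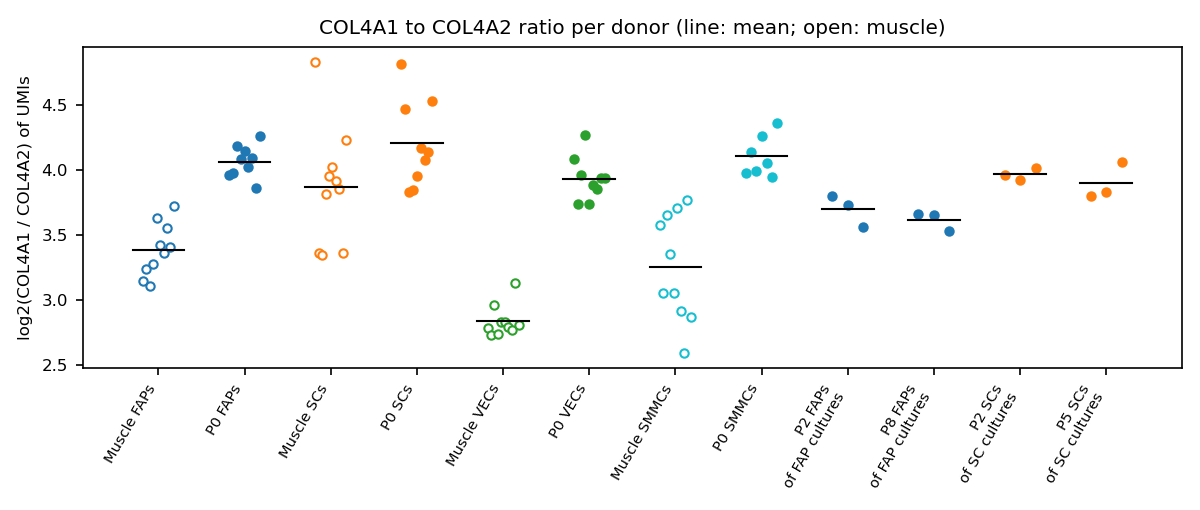
Log2 ratio of COL4A1 to COL4A2 UMIs (vertical axis, linear) per pseudobulk; each point is 1 donor, lines are means, and open points are muscle. FAPs lie between 3.11 and 3.73 in muscle and between 3.86 and 4.26 at P0, and VECs between 2.73 and 3.13 and between 3.74 and 4.27, without overlap.

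In FAPs of the FAP and unsorted cultures NID1 and HSPG2 were higher at P2 than at P0 and COL18A1 was lower, 3 called genes of the 10, beside 22.4% (12.3% higher, 10.1% lower) of 11638 genes called over all. At P2 NID1 stood at 194, 272 and 405 CPM in FAP cultures and 222, 255 and 237 in unsorted cultures, all above the P0 range of 89.7 to 124 (log2FC 1.45 ± 0.13 SE, edgeR adjusted p = 7.19e-08). HSPG2 stood at 12.8, 14.2 and 14.4 in FAP cultures and 12.9, 16.7 and 13.0 in unsorted cultures (log2FC 1.204 ± 0.10 SE, edgeR adjusted p = 2.33e-08), also above all P0 values but below all muscle values. COL18A1 was at 6.12, 4.12 and 7.80 in FAP cultures and 3.06, 3.28 and 2.54 in unsorted cultures, under every P0 value (log2FC -2.80 ± 0.28 SE, edgeR adjusted p = 1.63e-07). The other 7 genes had log2FC between -0.78 and 0.57. The FAP markers in these FAPs summed to 2829 to 4432 CPM at P0 and, at P2, to 9217 to 18045 in FAP cultures and 11993 to 13212 in unsorted cultures, and the SMMC markers to 24.6 to 66.4 and then 539 to 674 and 631 to 1186. In the same order the tenocyte markers summed to 5.13 to 8.97 and then 64.1 to 248 and 116 to 195. The myocyte markers summed to 0.431 to 1.34 and then 13.5 to 18.2 and 14.3 to 16.4. Their part in the differences was not tested. In SCs of the SC and unsorted cultures 3 genes were called from P0 to P2, beside 10.4% (6.43% higher, 4.00% lower) of all 10058 genes tested. HSPG2 was higher, with 15.04, 22.3 and 12.0 CPM in SC cultures (log2FC 1.51 ± 0.24 SE, edgeR adjusted p = 0.000136). NID2 was at 76.8, 92.0 and 64.6 in SC cultures and 54.7, 66.4 and 63.0 in unsorted cultures, all under the P0 range of 154 to 326 (log2FC -1.51 ± 0.16 SE, edgeR adjusted p = 3.08e-06). COL18A1 was at most 1.43 in any of these 6 cultures (log2FC -3.13 ± 0.32 SE, edgeR adjusted p = 2.47e-06). The P0 values of COL18A1 and HSPG2 in SCs, of HSPG2 in FAPs and part of those of COL18A1 in FAPs lay within the P0 macrophage ranges. The size of these folds from P0 to P2 thus rests on levels not detectable above that reference. In these SCs the FAP markers summed to 973 to 2009 CPM at P0 and, at P2, to 1168 to 2758 in SC cultures and 2669 to 6229 in unsorted cultures, the SMMC markers to 20.6 to 100 and then 446 to 911 and 265 to 463, and the myocyte markers to 0 to 1.69 and then 135 to 983 and 453 to 1758. The part of these markers was not tested.

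Between the cell types at P2, COL15A1 was higher in SCs than in FAPs, and COL4A1, COL18A1, NID1 and NID2 were lower, 5 called genes beside 16.0% (7.21% higher, 8.84% lower) of 11866 called over all. COL15A1 was at 24.0, 73.0 and 27.7 CPM in SCs of SC cultures and 89.1, 71.7 and 94.4 in SCs of unsorted cultures, against 11.3, 3.05 and 9.81 in FAPs of FAP cultures and 6.82, 4.81 and 4.53 in FAPs of unsorted cultures (log2FC 3.12 ± 0.43 SE, edgeR adjusted p = 0.00013). NID2 (log2FC -1.26 ± 0.15 SE, edgeR adjusted p = 4.68e-05), COL4A1 (log2FC -1.02 ± 0.23 SE, edgeR adjusted p = 0.00344) and COL18A1 (log2FC -2.80 ± 0.43 SE, edgeR adjusted p = 0.000259) were lower in SCs. COL18A1 had means of 0.733 CPM in SCs and 4.49 in FAPs. These COL18A1 values, the FAP values of COL15A1 and its lowest SC value lay within the ranges of P0 macrophages, and P2 held no such reference type. The size of both folds thus rests on very low levels. NID1 (log2FC -1.70 ± 0.38 SE, edgeR adjusted p = 0.00353) was not called with donor as a block (log2FC -1.12, edgeR adjusted p = 0.0932), a fit in which the 3 unsorted cultures alone hold both types.

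Between later passages few of the 10 genes were called. In SCs of SC cultures none of the 10 genes was called between P2 and P5 (3.01%, 0.845% higher, 2.16% lower, of 12195 genes called over all), with log2FC from -1.30 to 0.64. With donor as a block, COL15A1 was called (log2FC -1.21, edgeR adjusted p = 0.0236), with values of 24.0, 73.0 and 27.7 CPM at P2 and 11.9, 24.0 and 12.8 at P5, lower in 3 of 3 donors, beside 472 of all genes called in that fit. The P5 values lay within the range of P0 macrophages. In FAPs of FAP cultures none was called between P2 and P8 (0.0361%, 0.0271% higher, 0.00902% lower, of 11082 genes over all), with log2FC from -1.72 to 0.24. With donor as a block COL18A1 was called (log2FC -1.70, edgeR adjusted p = 0.00229), at 6.12, 4.12 and 7.80 and then 2.61, 0.809 and 1.98, beside 244 of all genes called in that fit. These COL18A1 values all lay within the range of P0 macrophages, so the size of this fold rests on very low levels. In FAPs of unsorted cultures COL15A1 was the 1 gene of the 10 called, at 6.82, 4.81 and 4.53 at P2 and 0.447, 0.932 and 1.43 at P8 (log2FC -2.78 ± 0.41 SE, edgeR adjusted p = 0.0396), beside 0.817% (0.571% higher, 0.246% lower) of all 11387 genes called. All of these values lay below those of COL15A1 in P0 FAPs, which were not detectable above P0 macrophages. The P8 values rest on pseudobulks of 8950945, 3220218 and 3486853 UMIs, so the size of this fold rests on very low counts. Without donor 1 or without donor 9 it was not called, with log2FC of -2.02 and -3.30 (edgeR adjusted p = 0.344 and 0.346). In these FAPs the FAP markers summed to 11993 to 13212 CPM at P2 and 4987 to 11557 at P8, and the myocyte markers to 14.3 to 16.4 and 37.0 to 56.8. In FAPs of FAP cultures the FAP markers went from 9217 to 18045 to 7883 to 19902 and the myocyte markers from 13.5 to 18.2 to 46.3 to 57.1, and in SCs of SC cultures the tenocyte markers went from 7.37 to 17.5 at P2 to 25.7 to 61.8 at P5. The part of these markers was not tested.

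Culture conditions were compared at P2. In SCs LAMA4 was lower in SC cultures, at 63.1, 105 and 83.9 CPM, than in unsorted cultures, at 172, 114 and 223 (log2FC -1.13 ± 0.28 SE, edgeR adjusted p = 0.0439), beside 7.51% (3.05% higher, 4.46% lower) of 11378 genes called over all. All SC culture values lay under the unsorted ones. The call was lost without donor 1, 5, 9 or 10 in turn and without the filter on low counts. With 1 donor left out at a time the log2FC of LAMA4 lay between -1.34 and -0.87. The FAP markers summed to 1168 to 2758 in these SCs of SC cultures and to 2669 to 6229 in those of unsorted cultures, the SC markers to 345 to 440.0 and 167 to 286, without overlap, and the part of either in the difference was not tested. In FAPs none of the 10 genes was called between FAP and unsorted cultures, with log2FC from -0.31 to 0.93. The largest, 0.93 for COL18A1, had a 95% interval of 0.43 to 1.43 by a normal approximation, which is too narrow for so few cultures. DESeq2 called 0 as well, and by edgeR this comparison called 2 of 11786 genes over all, 0.0170% (0% higher, 0.0170% lower).

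**Figure D5:**
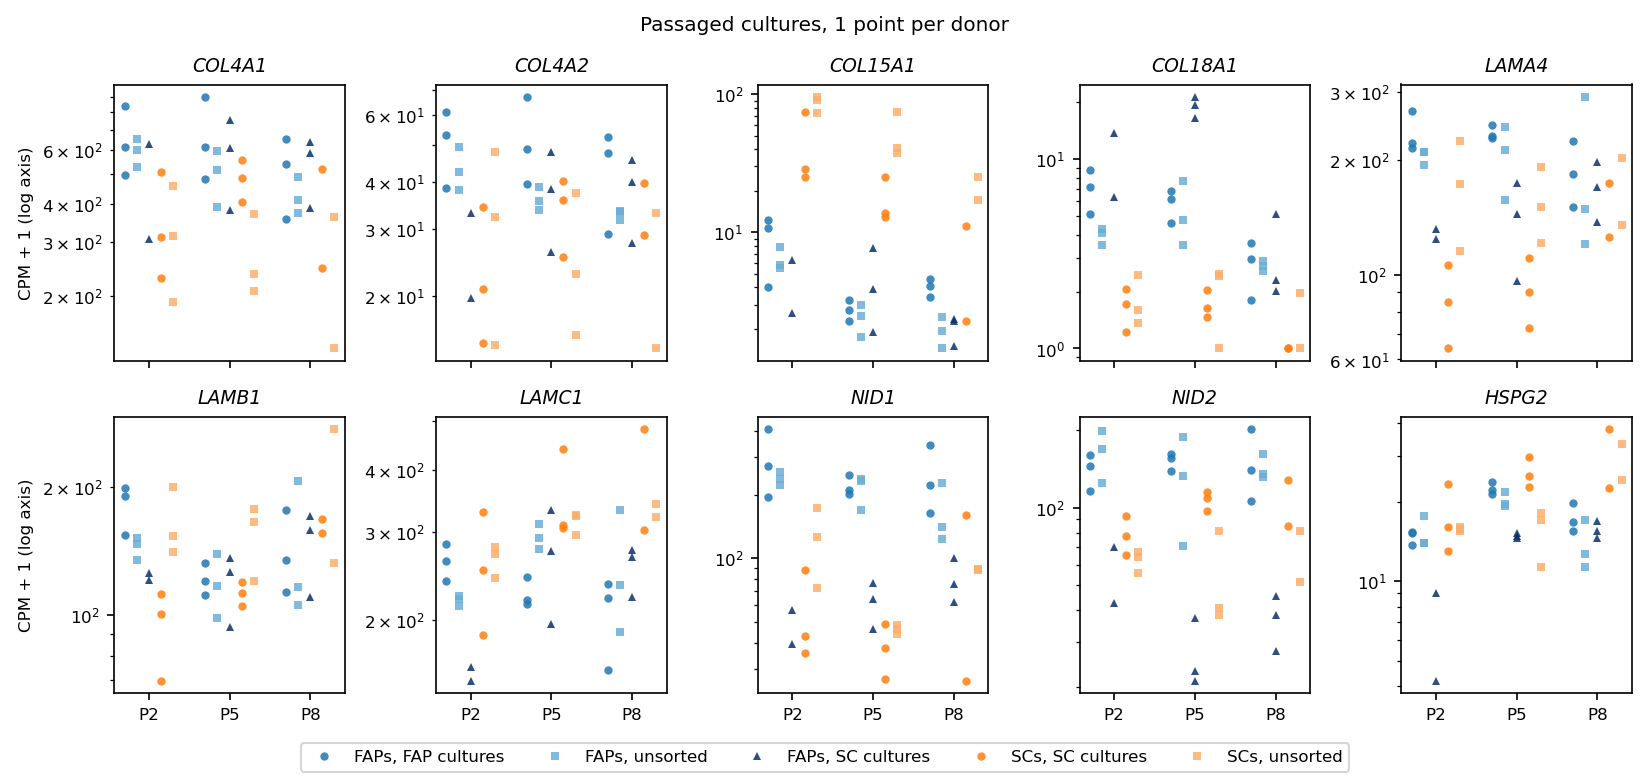
Levels of the 10 genes in passaged cultures at P2, P5 and P8 (horizontal axis), in CPM plus 1 on logarithmic vertical axes; each point is 1 donor, colour and shape give the cell type and the culture it was taken from. SCs carry the higher COL15A1 at P2, 24.0, 73.0 and 27.7 CPM in SC cultures, and FAPs of FAP and unsorted cultures the higher NID1, 194, 272 and 405 in FAP cultures, whereas FAPs of SC cultures held 38.4 to 56.0.

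The SC cultures also held cells labelled FAPs, with 593 cells of donor 5, 31 of donor 6 and 70 of donor 10 at P5. This comparison was added after the levels had been seen. At P5 NID1 was at 45.2, 75.6 and 63.3 CPM in these cells and at 209, 201 and 246 in FAPs of FAP cultures (log2FC -2.10 ± 0.16 SE, edgeR adjusted p = 5.59e-05). NID2 was at 22.2, 36.1 and 20.2 and 161, 138 and 155 (log2FC -2.84 ± 0.16 SE, edgeR adjusted p = 1.49e-05), LAMA4 was lower as well (log2FC -1.02 ± 0.17 SE), and COL18A1 was higher, at 15.6, 20.3 and 18.4 against 5.15, 3.63 and 5.84 (log2FC 1.64 ± 0.20 SE, edgeR adjusted p = 0.000379). LAMA4 lost its call without donor 5 (log2FC -0.83) or donor 8 (log2FC -0.998). The LAMA4 values of SC and FAP cultures did not overlap, but did once the FAPs of unsorted cultures were added. The COL18A1 values of both kinds of culture lay within the range of P0 macrophages, and P5 held no such reference type. These 4 genes were called beside 15.9% (7.99% higher, 7.90% lower) of 11517 genes over all. At P8, with 172 to 542 such cells in the 3 SC cultures, NID1 (log2FC -1.70 ± 0.31 SE, edgeR adjusted p = 0.0457) and NID2 (log2FC -2.10 ± 0.32 SE, edgeR adjusted p = 0.0314) were lower, beside 1.75% (0.696% higher, 1.05% lower) of 9911 genes called. COL18A1 was at 1.30, 4.12 and 1.02 and 2.61, 0.809 and 1.98 at that passage, with overlap, and was too low to test. Neither NID1 nor NID2 was called at P8 without donor 5, 6, 7, 8 or 10 in turn. With 1 donor left out at a time the log2FC lay between -1.93 and -1.36 for NID1 and between -2.32 and -1.82 for NID2. The FAP markers summed to 3276 to 4211 at P5 in the cells labelled FAPs of SC cultures and to 16535 to 20076 in those of FAP cultures, with none at 0. The tenocyte markers summed to 40.4 to 51.9 and 253 to 339 in the same cells. The part of these markers in the differences was not tested.

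Other genes of the basement membrane were followed as lists. The lists were chosen by known function. Between muscle and P0, 43.4% of all genes tested were called in FAPs, 34.3% in SCs, 35.1% in VECs and 36.4% in SMMCs. Of 29 further basement membrane genes in the files, most were too low to test, and in FAPs 8 lower and 1 higher of 10 tested were called between muscle and P0, with a median log2FC of -5.52. LAMA2, the alpha chain of the laminin around muscle fibres, went from 549.6 ± 161 (SD, n = 10) to 8.62 ± 3.53 (SD, n = 9) CPM (log2FC -5.85 ± 0.25 SE, edgeR adjusted p = 1.55e-14), and SMOC2, a calcium-binding matrix protein, from 138 ± 39.6 to 1.63 ± 0.421 (log2FC -6.23 ± 0.18 SE). Hemicentin 2, HMCN2, was at 24.2 to 66.6 in muscle and at most 0.0804 in any P0 donor, and EGFLAM, the dystroglycan ligand pikachurin, was at 8.37 to 66.9 and then at most 0.402. In SCs 4 lower and 1 higher of 5 tested were called. LAMA2 fell there from 241 ± 77.5 to 26.2 ± 9.51 (log2FC -3.24 ± 0.24 SE), and NTN4, a netrin that binds laminin, was the gene that rose (log2FC 1.30 ± 0.25 SE). In VECs 4 lower and 0 higher of 4 tested were called and in SMMCs 5 lower and 0 higher of 6 tested.

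Of the enzymes and chaperones of collagen synthesis and crosslinking, 6 lower and 0 higher of 16 tested were called in FAPs over the 72 h, beside 43.4% of all genes. PXDN, the peroxidasin that forms the sulfilimine crosslinks of type IV collagen, had a log2FC of -2.54 ± 0.10 SE (edgeR adjusted p = 9.8e-17), the lysyl hydroxylase PLOD1 -2.38 ± 0.10 SE, LOXL2, an oxidase known to crosslink type IV collagen, -2.26 ± 0.16 SE, and the prolyl hydroxylase subunit P4HA1 -1.79 ± 0.14 SE. The counts of this list were 4 lower and 2 higher of 15 tested in SCs, 2 lower and 2 higher of 14 tested in VECs and 1 lower and 1 higher of 13 tested in SMMCs, beside 34.3%, 35.1% and 36.4% of all genes, so the share called in this list was near or below that of all genes in each type. Among receptors for basement membrane proteins, 5 lower and 2 higher of 11 tested were called in FAPs, beside the same 43.4% of all genes. The syndecans SDC1 (4.21 ± 0.37 SE) and SDC4 (2.49 ± 0.16 SE) rose, and SDC3 (-3.18 ± 0.21 SE) and the collagen receptor DDR2 (-2.49 ± 0.16 SE) fell, all as log2FC. In SCs 4 of 8 tested receptors were called, all lower: dystroglycan DAG1 (-3.57 ± 0.21 SE), the laminin receptor BCAM (-3.14 ± 0.15 SE), DDR1 (-2.45 ± 0.23 SE) and the laminin-binding integrin subunit ITGA7 (-2.05 ± 0.11 SE). VECs had 6 lower and 2 higher of 10 tested and SMMCs 6 lower and 0 higher of 8 tested.

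From P0 to P2 more members of these lists were called higher than lower in FAPs, a step in which 22.4% (12.3% higher, 10.1% lower) of all genes were called. Of the further basement membrane genes 2 lower and 8 higher of 14 tested were called, the hemicentin HMCN1 (log2FC 3.94 ± 0.29 SE), the laminin chain LAMA3 (3.47 ± 0.67 SE), SPARC, a collagen-binding matricellular protein (2.64 ± 0.19 SE), and the network-forming collagen COL8A1 (2.15 ± 0.17 SE) with the largest values among them. Of the collagen synthesis list 0 lower and 8 higher of 17 tested were called, among them the prolyl hydroxylase subunit P4HA3 (3.55 ± 0.28 SE) and the lysyl oxidase LOXL3 (2.02 ± 0.17 SE), and of the receptors 1 lower and 4 higher of 16 tested, with the collagen-binding integrin subunits ITGA1 higher (3.92 ± 0.18 SE) and ITGA2 lower (-5.50 ± 0.54 SE). In SCs the counts were 0 lower and 4 higher of 10 tested, 0 lower and 3 higher of 17 tested and 0 lower and 6 higher of 14 tested, in the same order of lists, beside 10.4% (6.43% higher, 4.00% lower) of all genes. The 10 genes themselves had a median log2FC of 0.18 in FAPs and -0.03 in SCs over this step.

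The profile of COL4A1 was taken over 19 groups of cell type and timepoint, with the cultures of a passage pooled. It was most like that of COL4A2 (Pearson's r = 0.96 of mean log2 levels, first of 9827 genes), followed by the membrane protein EMP2 (0.92), TP53BP2 (0.91), the microtubule-binding MAP1B (0.90) and EHD2 (0.90). LAMB1 (0.84) and LAMC1 (0.84) were the next of the 10 genes, and COL15A1 (0.45) stood farthest from COL4A1, at rank 1902. For COL15A1, looked up after its levels had been seen, no other of the 10 genes was among the 5 nearest, which were PON3 (0.88), CASD1 (0.84), EEF1A2 (0.83), CAPN6 (0.82) and ZNF286A (0.82). These correlations describe groups that share donors, libraries and depth within a timepoint.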

How the data were processed

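The values used are the deposited UMI counts, not normalized, with 1 gene by barcode matrix per timepoint. Per the labels and the study's methods the authors made these counts with Cell Ranger 6.0.1 on ARS-UCD1.2 (submitters' processing notes), with both sequencing runs of a timepoint in 1 matrix. The authors assigned donors by genotype, kept cells within 3 median absolute deviations on genes, counts and mitochondrial share, and named cell types. How droplets of several cells were treated is not given in the sources used here, and no doublet caller was run here. Their cell table gave type, timepoint and donor, and its other 12 columns were not used.

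Counts were summed per donor, type and timepoint, and 159 of 218 sums with at least 10 cells were used. Pseudobulk depth ranged from 270458 to 2268755 UMIs in muscle FAPs and from 10321593 to 23061306 in P0 FAPs. Genes passing filterByExpr were tested with edgeR 4.0.16 (TMM, robust quasi-likelihood F test) in R 4.3.3 with limma 3.58.1, and called at an adjusted p (Benjamini-Hochberg) below 0.05 and an absolute log2FC above 1. SE was taken as the absolute log2FC over the root of the F statistic. Comparisons between types used all types with at least 3 donors in 1 fit. The scripts were tested on simulated data. Alternatives were DESeq2 1.42.0, no filter, at least 30 cells, thinning, donor as a block and leaving out each donor.

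The donors pair the samples, since a number is 1 animal. Correlations of deviations from group means over 5822 genes had medians of 0.10 between muscle and P0 in FAPs (lowest -0.02), 0.01 in SCs, 0.08 in VECs and 0.04 in SMMCs, 0.12 between muscle FAPs and SCs, 0.81 between P2 and P8 in FAP cultures and 0.44 between P2 and P5 in SC cultures. The 10 genes, the gene lists and the comparisons were chosen with earlier results of these data known. All 10 genes are described, at most 4 genes of each list with the largest absolute log2FC among those called are named, and the 5 genes nearest to COL4A1 in profile are named, over 9827 genes with a mean of at least 5 CPM. The 5 genes nearest to COL15A1 were added after its levels had been seen.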

Additional observations from a re-analysis of the deposited data

Results flagged for a closer look

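Each of the 10 genes was checked in FAPs, SCs, VECs and SMMCs of muscle and of P0, groups of 7 to 10 donors. Of these 80 sets of values, 8 had a highest donor whose gap to the next was above Dixon's 95% critical value, and, if values are normally distributed, chance gives about 1 in 20 such groups. These donors were donor 5 in P0 FAPs for LAMA4 (224 CPM) and LAMC1 (326), in P0 SCs for NID2 (326) and in P0 VECs for HSPG2 (50.4). Donor 9 stood highest in P0 SCs for LAMC1 (379 CPM) and in P0 SMMCs for COL15A1 (20.8). The P0 SMMC pseudobulk of donor 9 held 18 cells and 192635 UMIs, and the P0 VEC pseudobulk of donor 5 held 23 cells and 277985 UMIs. In muscle donor 3 stood highest in FAPs for HSPG2 (203 CPM) and donor 1 in SMMCs for LAMB1 (255).

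The culture change from muscle to P0 differed between FAPs and SCs in 8 of the 10 genes by the interaction term of edgeR. The difference of log2FC, FAPs minus SCs, was -1.23 for COL4A2, -3.40 for COL15A1, -3.28 for LAMA4, -3.12 for LAMB1, -1.63 for LAMC1, -2.01 for NID1, -4.44 for NID2 and -1.86 for HSPG2. Between FAPs and VECs it also differed in 8 genes, by -2.49 for COL4A1, -2.09 for COL4A2, -6.44 for COL15A1, -4.50 for COL18A1, -1.49 for LAMA4, -2.63 for LAMC1, -2.95 for NID1 and -2.73 for HSPG2, FAPs minus VECs.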

How the results depend on the processing

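Counts below are genes of the 10 that were called, in the order reported and then under the alternative. In SMMCs between muscle and P0 the 1 called gene became 3 with at least 30 cells per pseudobulk, 2 without the filter on low counts, 2 with donor as a block and 0 after thinning to the smallest pseudobulk. In SCs of SC cultures (P5 against P2) and in FAPs of FAP cultures (P8 against P2) 0 became 1 with donor as a block and 1 with DESeq2. For P2 SCs of SC against unsorted cultures 1 became 3 with DESeq2 and 0 without the filter, and for P8 FAPs of SC against FAP cultures 2 became 1 without the filter. The COL4A1 to COL4A2 change in SCs was 0.35 with a pseudocount of 2 (exact permutation test, BH-adjusted p = 0.0156), and in SMMCs with at least 30 cells it was 1.13 with 4 donors, too few to pass (exact permutation p = 0.125). The cause of these changes was not tested. Leaving out 1 donor at a time gave 0 to 1 genes in FAPs of unsorted cultures (P8 against P2), 0 to 4 in P2 SCs, 3 to 5 in P5 FAPs and 0 to 2 in P8 FAPs of SC against FAP cultures, and 0 in FAPs of FAP cultures and in SCs of SC cultures.

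No called gene changed sign under any alternative run, and donor as a block changed no other call of the 10 genes than those named here or in the report. With the block, 1 more gene of the collagen synthesis list was called higher in SMMCs between muscle and P0 (1 to 2) and in FAPs from P0 to P2 (8 to 9), and over that step receptors called higher went from 4 to 3 in FAPs and 6 to 5 in SCs. Of single log2FC under settings other than leaving out a donor, 429 stayed on their side of the thresholds, 10 lost the call and 16 gained it. LAMC1 in SCs between muscle and P0 lost it without the filter and with at least 30 cells, and LAMA4 in FAPs with DESeq2 and without the filter. Over all genes, dropping the filter raised the count from 3997 to 6925 in FAPs, 1789 to 5286 in SCs, 2071 to 5030 in VECs and 1257 to 4216 in SMMCs between muscle and P0, and thinning lowered it to 1591, 490, 1159 and 516, with fewer genes tested. Thinning also lowered the differences of culture change from 1754 to 431 genes against SCs and 2208 to 1012 against VECs. Without the filter the comparisons with FAPs went from 2013 to 4011 for VECs, 1675 to 2868 for SMMCs and 1516 to 2998 for SCs in muscle, from 846 to 2102 for SCs, 2338 to 4062 for VECs and 931 to 1581 for SMMCs at P0, with VECs against SMMCs going from 1851 to 3282 and SCs at P2 against P0 from 1049 to 1993. With at least 30 cells, SMMCs went from 1257 to 2177 between muscle and P0, and at P0 SCs went from 846 to 1529 and VECs from 2338 to 3515 against FAPs. With 3 cultures a side, FAPs of FAP cultures (P8 against P2) went from 4 to 244 with donor as a block, 107 with DESeq2, 10 without the filter and 0 without any 1 donor, and FAPs of unsorted cultures from 93 to 191, 257 with DESeq2, 3 without donor 1, 245 without donor 2 and 0 without donor 9. SCs of SC cultures (P5 against P2) went from 367 to 0 without donor 5 or 10. P2 SCs went from 855 to 1 without donor 1, 298 without donor 5 and 109 without donor 9, and P2 FAPs from 2 to 77 with DESeq2, 10 without donor 4 and 0 without donor 7. P8 FAPs went from 173 to 414 with DESeq2, 523 without donor 4, 1 without donor 7 and 38 to 67 without the others. COL18A1 and HSPG2 in SCs and 3 of the 10 genes in SMMCs had counts too low to be tested between muscle and P0.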

Other observations

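No test was set for several cell groups, which are given as values. In LECs, the endothelium of lymphatic vessels, COL18A1 lay at 214 to 614 CPM in 4 muscle donors and 30.1 to 91.4 in 7 P0 donors. LAMA4 lay at 249 to 599 CPM in 4 muscle donors and 136 to 247 in 7 P0 donors, and LAMB1 at 107 to 246 CPM in 4 muscle donors and 60.4 to 136 in 7 P0 donors. All P0 values of COL18A1 in LECs were below the muscle values, whereas in VECs the same gene was higher at P0. The LEC markers in these cells summed to 4686 to 12100.5 CPM in muscle and 74.2 to 1053 at P0, and the FAP markers to 0 to 60.7 and 225 to 1119, neither with overlap, and their part in the difference was not tested. LEC pseudobulks had as few as 10 cells at P0 and 11 in muscle, and the difference between LECs and VECs was not tested.

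FAP cultures held some cells labelled SCs at P2. In the pseudobulks of donors 4, 7 and 8 COL15A1 was at 56.2, 74.4 and 141 CPM, NID2 at 90.4, 71.0 and 29.4 and NID1 at 89.0, 79.8 and 173. In the SCs of SC cultures NID1 was at 34.7, 87.0 and 41.9 and NID2 at 76.8, 92.0 and 64.6. The FAP markers summed to 4276 to 6239 in these cells of FAP cultures and to 1168 to 2758 in the SCs of SC cultures.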
